A study of Rattus norvegicus with 13 samples.

Results

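Each of the 13 arrays in the study carries its own number in its title, and these numbers fall into a lower range (619, 620, 622, 624, 627, 629 and 631; 7 arrays) and an upper range (656, 658, 660, 662, 663 and 664; 6 arrays). The arrays were set against each other by that number alone, so all 13 of 13 arrays were used and no measured value chose them. The arrays measured microRNAs (miRNAs) in fat of female Sprague Dawley rats at 14 weeks of age. Their fathers had eaten either standard chow with 9% as fat (7 control arrays) or high-fat pellets with 43% as fat (6 HFD arrays), and were mated at 15 weeks of age. All mothers and all daughters ate chow, so diet differs between the arrays only through the father. The lower range held 3 control and 4 HFD arrays and the upper range 4 control and 2 HFD arrays, so father's diet entered every comparison as a covariate unless stated. The labels do not say what the number stands for, and name no litter, father or fat depot. The p-values below therefore measure the spread between these samples only.

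A miRNA is a short RNA, cut from a hairpin precursor, that guides the Argonaute protein to messenger RNAs and lowers their output. The seed, the stretch next to its 5′ end, pairs with the target, so miRNAs with a common seed form a family with overlapping targets. Fat is a mixed tissue of adipocytes, vessels, blood and immune cells, and several miRNAs are known from one of these: miR-451 and miR-144 from red blood cells, miR-126 from endothelium, and miR-1 and miR-133 from muscle fibres.

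The sequences of the miRNAs that the comparison turns on follow, 5′ to 3′, from RefSeq, with the seed (bases 2 to 8) in capitals. The array names give no strand for most of them, and the strand was assigned from the older naming in which a star marks the minor one. Of 17 miRNAs looked for, 15 were found in the table used here. The first set is the red blood cell group, which had the largest differences among the miRNAs of low p.
miR-144: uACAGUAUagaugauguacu
miR-144*: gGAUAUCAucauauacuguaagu
miR-451: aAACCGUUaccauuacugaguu
These come from neighbouring precursors on the plus strand of rat chromosome 10 (RefSeq on GRCr8). Mature miR-144 (3p strand) lies at chr10:63459446-63459465, miR-144* (5p strand) at chr10:63459409-63459431 and miR-451 (5p strand) at chr10:63459585-63459606, with 119 bases between miR-144 and miR-451. Each has a seed of its own.

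The second set is the let-7 family, whose 8 members found carry 1 and the same seed and differ from let-7a at 1 to 4 positions outside it.
let-7a: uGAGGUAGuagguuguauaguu
let-7b: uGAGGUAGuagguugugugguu
let-7c: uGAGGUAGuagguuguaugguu
let-7d: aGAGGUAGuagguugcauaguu
let-7e: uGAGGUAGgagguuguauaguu
let-7f: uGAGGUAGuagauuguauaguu
let-7i: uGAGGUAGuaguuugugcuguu
miR-98: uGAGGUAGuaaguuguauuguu
Probes for sequences this alike can bind each other's targets, so values of single let-7 members are not independent. The third set holds other miRNAs of low p, each with another seed.
miR-146a: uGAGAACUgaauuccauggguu
miR-1224: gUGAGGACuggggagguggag
miR-203: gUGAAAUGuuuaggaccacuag
miR-33: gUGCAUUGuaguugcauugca
Mature miR-146a lies at chr10:28350053-28350074 on the minus strand, miR-1224 at chr11:93811355-93811375 on the minus strand, miR-203 at chr6:137020756-137020777 on the plus strand and miR-33 at chr7:115593957-115593977 on the plus strand (GRCr8).

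The arrays sat on 2 slides, as the barcodes in the file headers give them. Slide 1 held 8 arrays, 5 lower (control 622, 627 and 631, HFD 624 and 629) and 3 upper (control 656, HFD 660 and 663). Slide 2 held 5 arrays, 2 lower (HFD 619 and 620) and 3 upper (control 658, 662 and 664), so that on slide 2 number range and father's diet cannot be told apart. All values within slide 2 therefore have no diet term and set upper control arrays against lower HFD arrays. Each array detected between 154 and 196 miRNAs, and 0 spots were saturated. Upper arrays detected 176 ± 10.1 miRNAs (SD, n = 6) and lower arrays 166 ± 12.0 (SD, n = 7), a difference of 11.9 with diet in the fit (two-sided exact permutation p = 0.0819 over 525 rearrangements of range within diet, smallest possible p = 0.0019). The share of spots well above background was 23.1% ± 1.13 (SD, n = 6) against 21.7% ± 1.47 (SD, n = 7), a difference of 1.69 percentage points (exact permutation p = 0.0400). The log2 scale, the brightness by which an array was divided, differed by 0.16 (exact permutation p = 0.162), and adjusted over these 3 measures the p-values were 0.123, 0.120 and 0.162. All 3 adjusted values passed without HFD 629, at 0.0171 for detected miRNAs (14.5 more), 0.00857 for the share of spots (2.02 points more) and 0.0171 for the scale (0.22 higher). Without HFD 660, detected miRNAs (15.2 more, adjusted exact permutation p = 0.0343) and the share of spots (2.20 points more, 0.0171) passed. Over all 13 arrays no measure passed after adjustment. Within slide 1 the differences were 8.43 miRNAs (exact permutation p = 0.333), 0.905 points (0.375) and 0.082 in log2 scale (0.625), and within slide 2 the last 2 were 1.68 points and 0.27, each with an exact permutation p of 0.1, the smallest that 3 arrays against 2 allow. The part of brightness and slide in the differences below was not tested, beyond the within-slide values given.

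Of miRNAs known from adipocytes, miR-103, miR-107, miR-143 and miR-378 were each detected on all 13 arrays, though none of them marks adipocytes alone. Several arrays stood apart from their range. HFD 629, control 662 and control 664 were rich in muscle miRNAs, with miR-1 at log2 levels of 2.74, 2.50 and 1.94 where the other 10 arrays lay between -5.24 and -1.28. Control 658 was apart in miR-143, miR-221, miR-222, miR-199a-5p, miR-214 and miR-196a. Results that these arrays carry are given with and without them. A log2 level here is a miRNA's signal relative to the bright probes of its own array, with a floor at -5.665 below which values have no order.

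Over all 176 miRNAs tested, the upper and lower ranges did not differ past the threshold for any miRNA. In limma 0 of 176 (0%) were called at an adjusted p under 0.05, with 0.592 as the smallest adjusted value. Before adjustment 13 miRNAs (7.39%) had a p under 0.05, of which 6 (3.41%) were higher and 7 (3.98%) lower in the upper range. The signs were near even, with 84 differences higher (47.7%) and 92 lower (52.3%), and a median of -0.0049. The levels of the ranges were free of overlap for 0 of 176 miRNAs (0%). The SE had a median of 0.085, and for 152 miRNAs the whole 95% interval stayed inside a 1.5-fold change in each direction (165 inside 2-fold), the floor narrowing it for dim miRNAs. The 6 higher were miR-144*, miR-144, miR-451, miR-33, miR-301a and miR-106b, and the 7 lower were miR-146a, miR-1224, miR-500, miR-203, let-7i, let-7b and let-7c. As these 13 were picked for low p, how their upper arrays lie about the lower mean is no separate support. The share of all 176 miRNAs with all 6 upper arrays on the same side of the lower mean is not given here.

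**Figure D1:**
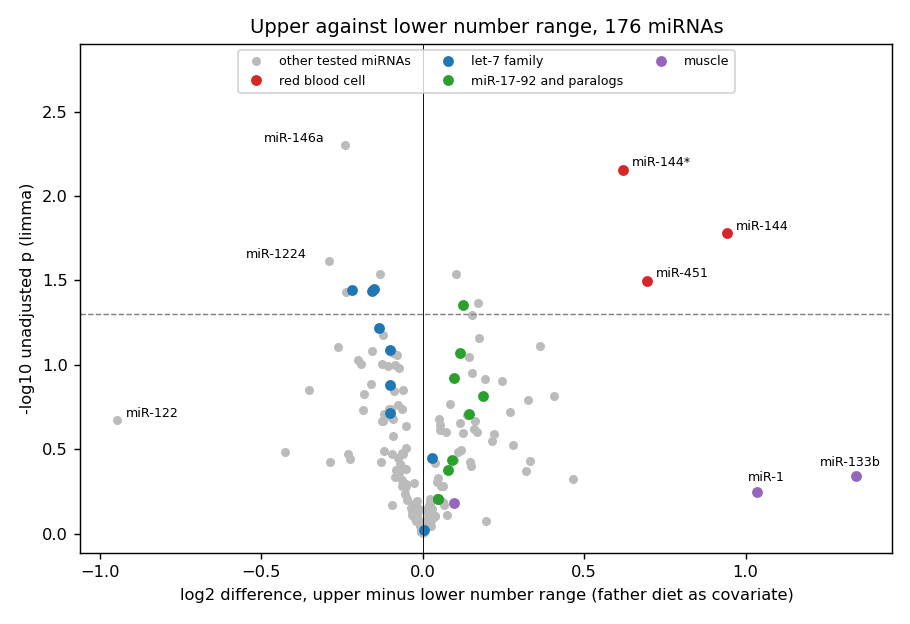
Difference between upper and lower number range against its unadjusted p for each of 176 miRNAs. The horizontal axis is the log2 difference with father's diet as covariate, the vertical axis is -log10 of the unadjusted limma p, the dashed line marks an unadjusted value of 0.05, and colours mark 4 lists. The 3 red blood cell miRNAs lie to the right above the line, the let-7 family mostly to the left, and miR-1 and miR-133b of muscle far right with high p.

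Red blood cell miRNAs had the largest differences among the 13. miR-144, which acts in red cell formation together with miR-451, had log2 levels of -2.43, -0.74 and -0.27 (lowest, median and highest) on the 6 upper arrays and of -2.61, -1.79 and -0.31 on the 7 lower arrays. On 5 of 6 upper arrays it lay above the lower mean, while control 656 lay among the lowest of all and lower array HFD 629 among the highest, so the ranges overlapped. The means were -0.95 ± 0.75 (SD, n = 6) and -1.70 ± 0.73 (SD, n = 7), and the difference with diet in the fit was 0.94 ± 0.34 (SE), or 1.92-fold with a 95% interval of 1.15 to 3.20 (limma unadjusted p = 0.0167, adjusted p = 0.592). miR-451, which is cut by Argonaute itself and is abundant in red cells, ran at 0.64, 2.20 and 2.48 on upper arrays and at 0.62, 1.45 and 2.60 on lower arrays. The same 2 arrays broke the order: control 656 was the lowest of the upper range and HFD 629 the highest of all. Its difference was 0.69 ± 0.28 (SE), or 1.62-fold with an interval of 1.05 to 2.49 (limma unadjusted p = 0.0319).

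miR-144*, from the other arm of the miR-144 hairpin, ran at -5.66, -4.84 and -4.18 on upper arrays and at -5.66, -5.46 and -4.45 on lower arrays. It was detected on 10 of 13 arrays and stood at the floor on control 622, 627 and 656, and its difference was 0.62 ± 0.19 (SE, limma unadjusted p = 0.0070). The size rests on how dim signal is treated: it was 0 with the floor raised 4 times, where all arrays sit at the floor, 0.22 with normexp background correction and 1.25 with the total gene signal. Of the 4 miRNAs of the list on the array 3 were tested, and all 3 had a higher mean in the upper range at an unadjusted p under 0.05 (background 3.41%). miR-144 and miR-144* share a hairpin and miR-451 is its neighbour, so the 3 are not independent, and they are part of that background. Without the diet term the limma unadjusted p was 0.0739 for miR-144, 0.0598 for miR-144* and 0.137 for miR-451. With slide as a block it was 0.0287, 0.012 and 0.0523. The median difference of the 3 was 0.69 against -0.0049 over all miRNAs tested. It was 0.76 within control arrays and 0.72 within HFD arrays. By slide it was 0.22 within slide 1 and 0.66 within slide 2, and miR-451 differed by 0.014 within slide 1. Without control 656, miR-144 differed by 1.16, miR-451 by 0.89 and miR-144* by 0.73, each with a limma adjusted p of 0.0980, and without HFD 629 by 1.08, 0.81 and 0.71. In whole tissue, more cells of a type and more RNA per cell cannot be told apart. Of 8 white blood cell miRNAs tested, 4 were higher and 4 lower, with a median of -0.042. That split is near the shares over all miRNAs tested (47.7% higher, 52.3% lower). miR-142-3p and miR-142-5p, of all blood cell lineages, were among the 4 higher. The part of blood content in these differences was not tested.

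**Figure D2:**
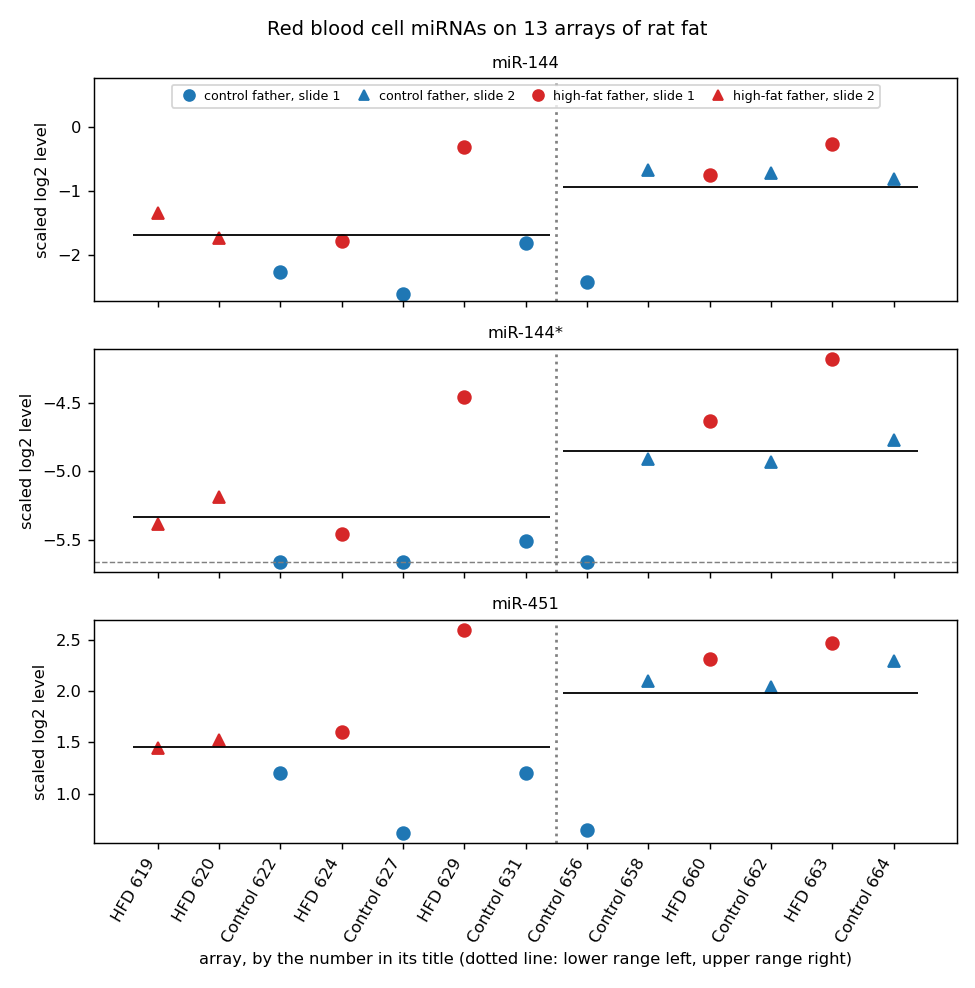
Levels of miR-144, miR-144* and miR-451 on each array. The vertical axes are scaled log2 levels, the horizontal axis lists the 13 arrays by the number in the title, colours give father's diet, shapes the slide, black lines the mean of each range, and the dashed line in the middle panel the floor. 5 of the 6 upper arrays sit above the lower mean in each panel, control 656 sits low, and HFD 629 is high among the lower arrays.

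The let-7 family, known as a brake on growth and insulin signalling genes, lay lower in the upper range by small amounts. Of 17 let-7 entries on the array 9 were tested, of which 7 were lower and 2 higher, with a median difference of -0.10, and 3 of 9 were lower at an unadjusted p under 0.05 (background 3.98%). let-7b ran at 1.01, 1.22 and 1.36 (lowest, median and highest) on upper arrays and at 1.10, 1.52 and 1.58 on lower arrays. All 6 upper arrays lay below the lower mean, but HFD 629 and control 631 of the lower range were as low as upper arrays. The difference was -0.22 ± 0.092 (SE), or 0.859-fold (limma unadjusted p = 0.0360). let-7c ran at 1.72, 1.77 and 1.92 on upper and at 1.72, 1.98 and 2.06 on lower arrays, a difference of -0.16 ± 0.066 (SE, limma unadjusted p = 0.0368). let-7i ran at 0.81, 0.91 and 1.13 on upper and at 0.90, 1.05 and 1.24 on lower arrays, a difference of -0.15 ± 0.063 (SE, limma unadjusted p = 0.0354).

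let-7a differed by -0.14 ± 0.065 (SE), let-7f by -0.10 ± 0.062 (SE), let-7d and let-7e by -0.10 each. The members that did not lie lower were miR-98, at 0.0048, and the minor strand let-7a-1*, at 0.030 and near the floor. HFD 629 and control 658 were low in most members. Without control 658 the differences were -0.18 for let-7b, -0.14 for let-7c and -0.12 for let-7i. Without HFD 629 they were -0.261, -0.183 and -0.17. Within slides 1 and 2 the median of the family was -0.051 and -0.16, within control and HFD arrays -0.13 and -0.14. It was below 0 in all 33 alternative settings tried, from -0.23 with the deposited value table to -0.051 within slide 1, though that table's median over all miRNAs was itself -0.13.

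**Figure D3:**
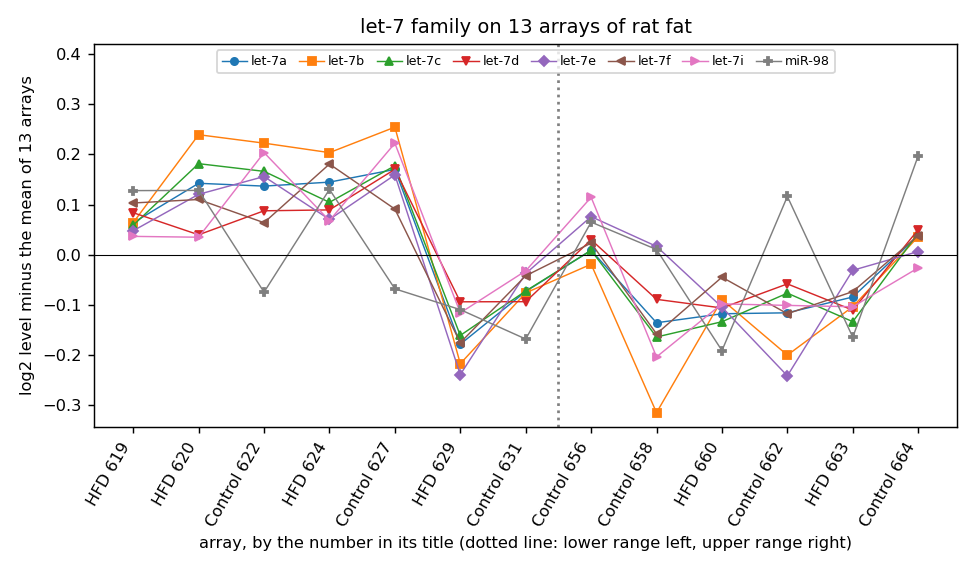
The let-7 family on each array. The vertical axis is each member's log2 level minus its own mean over 13 arrays, the horizontal axis lists the arrays by title number, and each line is 1 of 8 members, let-7a-1* left out. Of the 7 lower arrays, 5 (619 to 627) lie above 0 for the members other than miR-98, while HFD 629 and control 631 lie below 0, as do control 658, HFD 660, control 662 and HFD 663 for most members.

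miR-146a, a brake on inflammatory signalling in immune cells, had the lowest p of all. It ran at -0.67, -0.56 and -0.40 on upper arrays and at -0.46, -0.36 and -0.12 on lower arrays. All 6 upper arrays lay below the lower mean, and the ranges overlapped only through control 664 and the lower arrays of lowest level, HFD 619 and HFD 624. The difference was -0.24 ± 0.070 (SE), or 0.847-fold with a 95% interval of 0.762 to 0.941 (limma unadjusted p = 0.0050, adjusted p = 0.592). It was -0.19 within slide 1, -0.25 within slide 2, -0.25 within control arrays and -0.22 within HFD arrays. With the authors' deposited table it was 0.10, where control 664 holds a value of 14.18 against 10.85 in log2 of the scanner's total gene signal. Its relative miR-146b differed by -0.35 ± 0.22 (SE), and miR-223, of myeloid cells, by -0.18, while miR-142-3p and miR-142-5p, of all blood cell lineages, differed by 0.21 and 0.22.

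miR-1224, a mirtron cut from a short intron, ran at -2.38, -2.17 and -2.06 on upper arrays and at -2.11, -1.90 and -1.37 on lower arrays. Again all 6 upper arrays lay below the lower mean, HFD 619 was the one high value, and HFD 629 and control 631 overlapped with the upper range. The difference was -0.29 ± 0.11 (SE, limma unadjusted p = 0.0244), and it was -0.27 within slide 1 and -0.53 within slide 2. miR-203, an epithelial miRNA, ran at -2.45, -2.26 and -2.02 on upper and at -2.39, -1.96 and -1.78 on lower arrays. All 6 upper arrays lay below the lower mean, with HFD 629 and control 622 low in the other range. Its difference was -0.24 ± 0.10 (SE, limma unadjusted p = 0.0370), -0.11 within slide 1 and -0.48 within slide 2. miR-500 differed by -0.13 ± 0.054 (SE, limma unadjusted p = 0.0292).

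On the higher side, miR-33, which lies in an intron of the Srebf2 gene and holds back cholesterol export, was dim on all arrays. It ran at -5.38, -5.31 and -5.29 on upper arrays and at -5.54, -5.37 and -5.33 on lower arrays, close above the floor. All 6 upper arrays lay above the lower mean. The difference was 0.10 ± 0.042 (SE), or 1.08-fold (limma unadjusted p = 0.0289), and within slides 1 and 2 it was 0.084 and 0.10. It was 0 with the floor raised 4 times, 0.032 with normexp (limma unadjusted p = 0.301), 0.062 with the percentile over all probes (limma unadjusted p = 0.231) and 0.42 with the total gene signal. miR-301a ran at -3.79, -3.52 and -3.37 on upper and at -3.84, -3.73 and -3.58 on lower arrays, a difference of 0.17 ± 0.076 (SE, limma unadjusted p = 0.0431). Upper array HFD 660 lay with the low values of the other range. Within slides 1 and 2 miR-301a differed by 0.21 and 0.20, but by 0.074 with normexp, 0.075 with the floor raised 4 times and 0.045 with the percentile over all probes.

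The miR-17-92 cluster and its paralogs, known from dividing cells, stood higher for 9 of 9 tested members of 27 on the array, with a median of 0.095 and 1 at an unadjusted p under 0.05 (background 3.41%). That direction depended on the scaling and on the slide. It turned for 7 of 9 members with the percentile over all probes and with the deposited table, and for 6 of 9 within slide 1, where the median was -0.016. miR-106b ran at -2.36, -2.20 and -2.06 on upper and at -2.39, -2.36 and -2.19 on lower arrays, a difference of 0.13 ± 0.056 (SE, limma unadjusted p = 0.0443). miR-25, from the same precursor RNA, differed by 0.12 ± 0.062 (SE), and miR-19a by 0.19. miR-106b differed by 0.034 and miR-25 by 0.019 within slide 1.

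**Figure D4:**
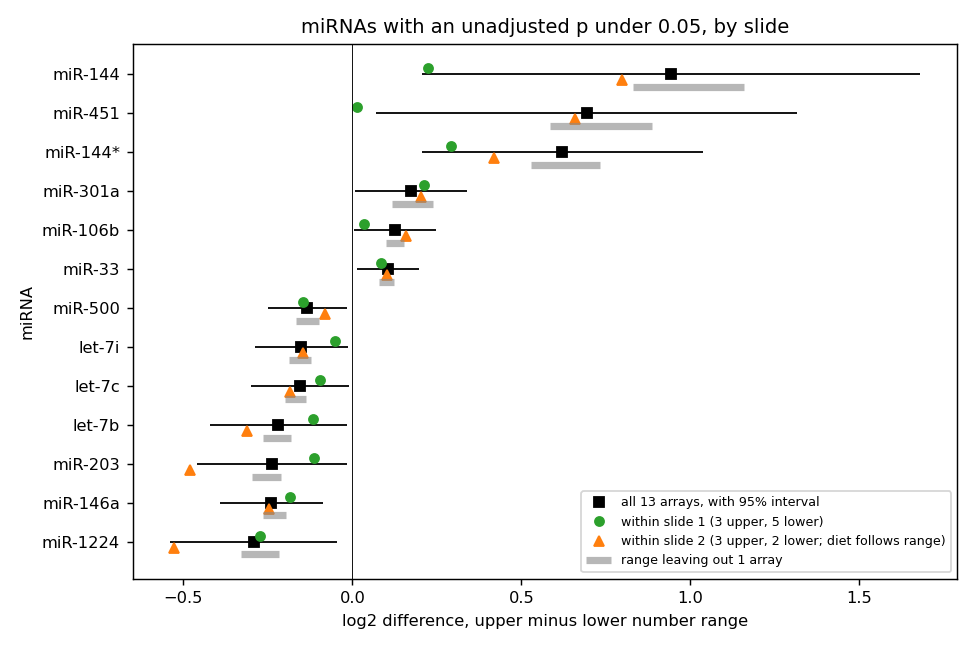
The 13 miRNAs with an unadjusted p under 0.05, with their difference by slide. Squares and lines are the log2 difference over all 13 arrays with its 95% interval, circles the difference within slide 1, triangles that within slide 2, and grey bars the range when 1 array at a time was left out. The fit within slide 2 had no diet term, as range and diet coincide there. All circles and triangles fall on the side of their square, but 8 of the 13 circles (miR-144, miR-451, miR-144*, miR-106b, let-7i, let-7b, let-7c and miR-203) lie closer to 0 by over 1.5 times, miR-451 at 0.014 against 0.69.

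Among miRNAs with known roles in adipocytes, none passed the test, as none did among all 176. Over all 176, 52.3% of differences were lower. The share higher over all was 58.5% within control arrays and 35.8% within HFD arrays. miR-103 and miR-107, which share a seed family and dampen insulin sensitivity in fat, were both lower in the upper range. They differed by -0.20 ± 0.11 (SE, limma unadjusted p = 0.094) and -0.16 ± 0.083 (SE, limma unadjusted p = 0.0824). Both lay below the lower mean on 6 of 6 upper arrays, and how many of all 176 did so is not given here. As members of the same seed family they are not counted as separate support. Their median difference was -0.10 within slide 1 and -0.29 within slide 2 and stayed below 0 in all 33 settings. Of 10 tested miRNAs of brown and beige adipocytes, 3 were higher and 7 lower, with a median of -0.063. The miR-29 family, of insulin action and collagen, had 4 of 5 lower with a median of -0.086, but 4 of 5 higher within slide 2 (median 0.083) and 3 of 5 higher within control arrays (median 0.052). Its member miR-29c differed by -0.12 ± 0.061 (SE), by -0.0044 within control arrays and by -0.28 within HFD arrays. The miR-30 family, which supports adipocyte differentiation, had 6 of 8 lower with a median of -0.034, but 6 of 8 higher within control arrays and 8 of 8 lower within HFD arrays. miR-30b-5p differed by -0.086 and miR-30d by -0.075. miR-26a, which supports adipocyte differentiation, differed by -0.052 ± 0.049 (SE), and the list of both miR-26 members had a median of -0.037. miR-34a, which rises in obese fat, differed by -0.26 ± 0.14 (SE), and by 0.0064 within slide 1.

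Control 658 set much of another group. miR-143, of smooth muscle and of adipocyte differentiation, ran at 1.10, 1.46 and 3.74 on upper arrays and at 1.34, 1.39 and 1.66 on lower arrays. The one high array was control 658, and the difference of 0.33 ± 0.36 (SE) was 0.0083 without it. miR-221 and miR-222, of vessel cells and preadipocytes, differed by 0.41 ± 0.27 (SE) and 0.28 ± 0.25 (SE), and by 0.17 and 0.041 without that array. miR-222 was at the floor on 8 of 13 arrays, all 6 HFD arrays among them, and its difference was 0.0067 with the floor raised 4 times. miR-199a-5p and miR-214, from one mesenchymal transcript, differed by 0.36 ± 0.19 (SE) and 0.19 ± 0.12 (SE), and by 0.20 and 0.10 without control 658. miR-196a, from the Hox gene clusters, was -4.83 on control 658, where the other upper arrays lay between -2.63 and -2.04. Its difference was -0.43 ± 0.42 (SE), and -0.076 without that array. The Hox list had 5 of 6 lower with a median of -0.15, and 5 of 6 higher within slide 1.

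Markers of other tissues were uneven between arrays. The muscle list had 3 of 3 tested members higher in the upper range, with a mean level per array between -5.06 and 0.46 in the upper and between -4.93 and 0.50 in the lower range. miR-133b differed by 1.34 ± 1.75 (SE) and miR-1 by 1.04 ± 1.76 (SE), and both were lower within slide 1 (-1.93 and -2.16) and within HFD arrays (-2.94 and -3.12). Without the 3 muscle-rich arrays miR-1 differed by -0.17 and miR-133b by 0.376. Liver miR-122 ran at -5.66, -5.46 and -3.90 on upper and at -5.66, -5.40 and -2.28 on lower arrays. Of the lower arrays 3 (HFD 620, control 622 and HFD 624) were high, and the difference of -0.95 ± 0.72 (SE) did not pass (limma unadjusted p = 0.213). The liver, gut and pancreas list had 3 of 3 lower, and miR-192 differed by -0.19 ± 0.11 (SE). Endothelial miR-126 differed by -0.070 ± 0.077 (SE), by 0.091 within slide 1 and -0.28 within slide 2. Of 5 neural and glial miRNAs 4 were higher, led by miR-204 at 0.46 ± 0.63 (SE). HFD 663 held the top level of miR-204 (-1.95), and leaving that array out gave a difference of -0.155. The part of these cell types in the differences above was not tested.

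The remaining lists were split or close to 0. The imprinted Dlk1-Dio3 cluster had 4 of 8 higher with a median of 0.040, and its member miR-127 differed by 0.25 ± 0.15 (SE) and was detected on 6 arrays. The miR-15/16 family had 2 of 7 higher with a median of -0.0063 and miR-195 at -0.18 ± 0.13 (SE). The miR-181 family had 3 of 4 higher, led by miR-181c at 0.15 ± 0.070 (SE). The miR-23, miR-24 and miR-27 clusters had 5 of 6 higher with a median of 0.050, miR-23b at 0.16 and miR-23a at -0.091. The miR-99, miR-100 and miR-125 families had 4 of 7 higher with a median of 0.0039 and miR-125a-5p at -0.12. miR-542-3p, outside the lists, differed by 0.17 ± 0.087 (SE).

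Whether the range difference itself differed between the fathers' diets was tested as an interaction, and 1 of 176 miRNAs passed (0.568%), with 16 (9.09%) at an unadjusted p under 0.05. That miRNA was miR-352, which no naming rule chose and which is named because it was the one call. With control fathers its log2 levels were -3.11, -3.08 and -3.07 on the 3 lower arrays and -2.89, -2.87, -2.81 and -2.81 on the 4 upper arrays. With high-fat fathers they were -3.01, -2.88, -2.86 and -2.82 on the 4 lower arrays and -3.20 and -3.10 on the 2 upper arrays. Upper lay above lower on all arrays of control fathers and below on all arrays of high-fat fathers. As miR-352 was named for its interaction p, this order is no separate support. How many of the 176 miRNAs were ordered alike was not counted. The range difference was 0.24 in the first and -0.26 in the second, and the difference between them was -0.50 ± 0.082 (SE, limma adjusted p = 0.0159).

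This call depended on the setting. With slide in the fit the difference of differences was -0.42 ± 0.10 (SE, adjusted p = 0.441), with quantile normalization -0.235 (adjusted p = 0.526), with normexp background correction -0.36 (adjusted p = 0.427) and with the total gene signal -0.296 (adjusted p = 0.834). The sign stayed below 0 in all 19 settings, from -0.552 to -0.235, but the call was also lost when control 622, 627, 631, 662 or HFD 663 was left out (adjusted p = 0.0598, 0.0522, 0.0636, 0.0505 and 0.190). The cells are uneven by slide: all 3 lower control arrays and both upper HFD arrays were on slide 1. Slide 2 held 3 of the 4 upper control arrays and 2 of the 4 lower HFD arrays. With diet and range in the fit, miR-352 stood 0.20 higher on slide 2 (limma unadjusted p = 0.010, adjusted p = 0.253). miR-98, of the let-7 family, had the same order of means, at -1.95 and -1.75 for lower and upper with control fathers and -1.78 and -2.03 with high-fat fathers. miR-98 and miR-352 ran close to parallel over the arrays, at -2.01 and -3.20 on HFD 663 and -1.65 and -2.81 on control 664. They are therefore not independent. The difference of differences of miR-98 was -0.45 ± 0.11 (SE) and did not pass over all arrays (adjusted p = 0.137). With slide in the fit it was -0.34 (adjusted p = 0.830). On slide 2 miR-98 stood 0.19 higher with diet and range in the fit (limma unadjusted p = 0.012, adjusted p = 0.2635). Without HFD 629 the interaction of miR-98 passed (-0.51, adjusted p = 0.00859), together with miR-352 and miR-324-3p. Without the 3 muscle-rich arrays it passed (-0.45, adjusted p = 0.0121) with miR-352 and miR-99b. Over all arrays the difference of differences of miR-324-3p was -0.43 (limma unadjusted p = 0.0099). It was -0.15 with slide in the fit (limma unadjusted p = 0.238), and miR-324-3p was the one call for slide itself.

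**Figure D5:**
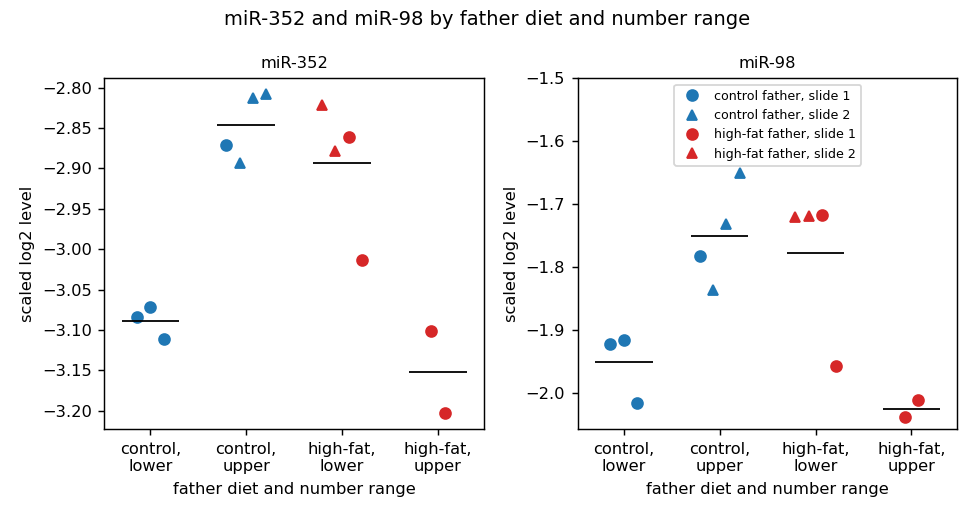
miR-352 and miR-98 by father's diet and number range. The vertical axes are scaled log2 levels, each point is 1 array, colours give the diet, shapes the slide, and black lines the mean of each of the 4 cells. With control fathers the upper arrays lie above the lower ones, with high-fat fathers below them, and the 2 HFD upper arrays are the only ones of their cell. Both miRNAs are shown for their low interaction p, so this order is no separate support.

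Slide itself, with diet and range in the fit, had 1 call, miR-324-3p, which stood 0.27 ± 0.049 (SE) higher on slide 2 (limma adjusted p = 0.0385), and 0 calls when fitted alone. With slide as a block beside diet, the range comparison again had 0 calls (lowest adjusted p = 0.600, 11 at an unadjusted p under 0.05). miR-146a then differed by -0.24, miR-1224 by -0.34, miR-144 by 0.87, miR-144* by 0.61, miR-451 by 0.65, let-7b by -0.22 and let-7c by -0.165. Within slide 1 alone, with 3 upper and 5 lower arrays, 8 of the 13 miRNAs of unadjusted p under 0.05 had a difference smaller by over 1.5 times. These were miR-144 (0.22), miR-144* (0.29), miR-451 (0.014), miR-106b (0.034), let-7i (-0.051), let-7b (-0.12), let-7c (-0.095) and miR-203 (-0.11). The other 5 were miR-146a, miR-1224, miR-500, miR-33 and miR-301a.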

How the data were processed

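Per the file headers, the authors read each 1-colour Agilent array with Feature Extraction 10.7.3.1, and the deposited spot intensity has its background subtracted and is linear. The deposited value table holds log2 of the scanner's total gene signal, found by setting it against the scanner files. The table's column medians ran from 6.95 to 7.77. RMA and Partek appear in the submitters' processing notes, with no role given. Per the labels' protocols, 100 ng of total RNA was labelled.

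Probe means of unflagged spots were scaled by each array's 75th percentile, taken over 260 probes that all 13 arrays detected, then floored (log2 -5.665), put on the log2 scale and averaged per miRNA. A probe was detected with at least 0.5 of its spots well above background. A miRNA was tested if detected on at least 6 arrays, which left 176 of 677, and 206 were detected on any array. The test was limma 3.58.1 in R 4.3.3, two-sided, with father's diet as covariate and Benjamini-Hochberg adjustment at 0.05. Scripts were tested on simulated data. Array measures were compared by exact permutation within diet, and marker lists only described. The rule for named miRNAs took the 10 lowest p in each direction, 2 members of each of 24 lists and 3 of brightest signal, 56 in all, of which 12 are given only in list counts. Arrays, rule and lists were chosen with earlier results of these data known. Alternatives covered slide, diet, scaling, background, filter, floor, weights and each array left out. normexp used the median spot signal, a choice made after seeing the data.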

Additional observations from a re-analysis of the deposited data

Results flagged for a closer look

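Over 112 groups of values checked (44 named miRNAs and 12 array measures, in each range), 19 held 1 array far from the others of its range. Chance gives about 1 in 20 for independent groups. These groups share arrays and the marker means share miRNAs with them, so the count cannot be read against that share. In the upper range, control 658 was apart in miR-143 (3.74), miR-221 (-1.75), miR-222 (-3.87), miR-199a-5p (-0.69), miR-214 (-2.215), miR-196a (-4.83) and the smooth muscle mean (-0.2264). Control 656 was apart in miR-144 (-2.43), miR-451 (0.64) and the red blood cell mean (-2.48), below the other upper arrays each time. HFD 663 detected 196 miRNAs, more than the other upper arrays. In the lower range, HFD 629 was apart in miR-144* (-4.45), miR-195 (-0.055) and miR-125a-5p (-1.94), HFD 619 in miR-542-3p (-4.65) and miR-1224 (-1.37), control 622 in miR-221 (-3.34) and miR-222 (-5.51), and control 631 in miR-143 (1.66). The other 6 lower arrays of miR-222 stood at the floor.

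The range difference of miR-352 differed between the fathers' diets by -0.50 (limma interaction, adjusted p = 0.0159), with 2 upper HFD arrays behind it, and lost its call with slide in the fit.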

How the results depend on the processing

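The range comparison had 0 calls under all 33 alternatives, with the lowest adjusted p (limma) at 0.0635 with array weights and the highest of those lowest values at 0.815, and 4 to 40 miRNAs at an unadjusted p under 0.05 against 13. The count was 40 with array weights, 38 with the deposited table, 30 without the 3 muscle-rich arrays, 25 with the percentile over all probes, 30 without HFD 629, 7 without HFD 620, 6 without control 622, 8 without HFD 624, 5 without control 627, 8 without control 662 and 4 without HFD 663. The percentile over all probes moved the median of all differences from -0.0049 to -0.10 (23.3% of miRNAs higher against 47.7%), the deposited table to -0.13 (29.5%) and normexp to -0.043 (28.4%). HFD arrays alone gave 35.8% higher and control arrays alone 58.5%.

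Signs turned for these. With the percentile over all probes, miR-106b stood at -0.0015 and miR-25 at -0.0109. With normexp, miR-181c stood at -0.0137 and miR-542-3p at -0.0128. With the deposited table, miR-25 stood at -0.013, miR-542-3p at -1.06 and miR-146a at 0.10. Within slide 1, miR-34a stood at 0.0064, miR-133b at -1.93, miR-1 at -2.16, miR-126 at 0.091, miR-196a at 0.028, miR-23a at 0.039 and miR-125a-5p at 0.013. Within slide 2, miR-29a stood at 0.021. Within HFD arrays, miR-133b stood at -2.94, miR-1 at -3.12 and miR-23b at -0.024. miR-1 stood at -0.17 without the 3 muscle-rich arrays and -0.15 with the muscle mean as covariate. Leaving out 1 array, miR-204 ran from -0.16 to 0.97. The cause was not tested, except that the deposited table holds other values for single arrays of miR-146a and miR-542-3p.

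With the floor raised 4 times, the differences of dim miRNAs came to 0 for miR-144*, miR-33, miR-181c, miR-542-3p, miR-192 and miR-127, whose signal then lay at the floor on all arrays. The interaction had 0 calls with the slide block, quantile normalization, normexp and total gene signal, 1 (miR-27a) with the deposited table, 3 without the muscle-rich arrays and 0 to 3 leaving out 1 array. miR-352 stood at -0.42, -0.235, -0.356, -0.296 and -0.479 in the first 5 of these, and from -0.55 to -0.45 leaving out 1 array. Leaving out 1 array, detected miRNAs differed by 7.56 to 15.2, spots well above background by 1.29 to 2.20 points and the log2 scale by 0.11 to 0.22. No paired analysis was possible because no title number occurs in both ranges. 13 arrays, 2 of them upper HFD, limit the precision, and on slide 2 range and diet coincide.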

Other observations

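The authors' deposited value table and the scanner's total gene signal gave the same value for all but 26 of 2569 entries. Of these 26, 9 were higher by 10-fold and 6 by 100-fold within 0.02 on the log2 scale, and 9 by 1000-fold within 0.1, and the other 2 differed by less than 0.01. They fell on 13 upper-range and 13 lower-range entries, 24 of the 26 on miRNAs tested here. Among them were miR-146a on control 664 (14.18 against 10.85), miR-301a on control 656 (14.73 against 8.08), miR-542-3p on HFD 624 (16.13 against 6.13) and miR-27a on HFD 660 (15.37 against 12.05) and HFD 663 (15.18 against 11.86). With the deposited table miR-146a differed by 0.10 between the ranges in place of -0.24, miR-301a by 0.98 in place of 0.17 and miR-542-3p by -1.06 in place of 0.17, and miR-27a became the one interaction call (3.395, limma adjusted p = 5.84e-07).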
